A study of Mus musculus with 9 samples.

Results

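Anti-Müllerian hormone and its receptor are the products of Amh and Amhr2, and these 2 genes, out of 55536 listed in the deposited tables, were followed through 9 mouse ovary samples profiled by RNA-seq. Both were taken by symbol from the GENCODE M21 annotation. The tumour group held 3 ovaries labelled as granulosa cell tumour and the hyperplasia group 3 ovaries labelled as hyperplasia, all 6 with the genotype FOXL2 WT/C134W. The wild-type group held 3 ovaries with the genotype FOXL2 WT/WT. C134W is an amino acid change in FOXL2, a forkhead protein needed to keep granulosa cell identity, and it was present in 1 of the alleles of every mutant sample. The labels give no age, strain or treatment and do not say which cells carried the changed allele. The series compares granulosa cell tumours of these mice with normal ovaries.

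AMH is a secreted hormone of the TGF-beta family. In the ovary it is made by granulosa cells, the somatic cells around the oocyte, mainly in small growing follicles, where it restrains the recruitment of resting follicles and lowers the response to FSH. In the male fetus Sertoli cells secrete it, and it removes the Müllerian ducts. The precursor is cut by proprotein convertases, and the carboxy-terminal hormone domain binds AMHR2, a serine/threonine kinase receptor of type II dedicated to AMH. AMHR2 then acts with a type I receptor shared with BMPs, which activates SMAD proteins of the BMP class.

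Amh (ENSMUSG00000035262) lies on the plus strand of GRCm38 chr10:80805243-80807648 and has 1 annotated transcript of 5 exons and 1670 bases. That transcript has 5 bases before the start codon and 0 bases after the stop codon, so the deposited values count reads over the coding sequence almost alone. The end of the coding sequence is shown because it encodes the end of the hormone domain that AMHR2 binds. It is given 5′ to 3′ from the GENCODE M21 transcript at chr10:80807499-80807648, plus strand, 150 bases in the last exon, with the stop codon in capitals.
Amh coding end: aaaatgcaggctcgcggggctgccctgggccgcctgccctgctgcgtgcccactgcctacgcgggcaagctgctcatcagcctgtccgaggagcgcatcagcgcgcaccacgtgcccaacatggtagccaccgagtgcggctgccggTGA
The closest annotated neighbours were Sf3a2, a splicing factor gene that ends 318 bases before Amh on the same strand, and Jsrp1, which lies 847 bases beyond it on the other strand. No annotated gene overlapped Amh.

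Amhr2 (ENSMUSG00000023047) lies on the plus strand of chr15:102445367-102454633 and has 5 annotated transcripts, the longest with 11 exons and 1938 bases. No annotated gene overlapped it, and the nearest neighbours were Sp1, 8962 bases before it, and the non-coding gene Gm26518, 892 bases beyond it on the other strand. Its promoter window, 250 bases before to 50 bases after the annotated start, is shown because NR5A1 (steroidogenic factor, an orphan nuclear receptor of gonads and adrenals) is a known regulator of both genes. It comes from RefSeq on GRCm38.p6, chr15:102445117-102445416, plus strand, 5′ to 3′, and the capitals mark a match to the NR5A1 motif CAAGGTCA.
Amhr2 promoter: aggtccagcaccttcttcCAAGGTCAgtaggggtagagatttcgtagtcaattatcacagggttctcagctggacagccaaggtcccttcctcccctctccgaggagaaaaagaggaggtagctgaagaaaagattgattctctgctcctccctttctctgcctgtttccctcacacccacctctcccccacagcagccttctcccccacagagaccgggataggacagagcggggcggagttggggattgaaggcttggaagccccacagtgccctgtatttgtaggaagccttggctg
The match was on the gene's own strand, from base -232 to base -225 relative to the annotated start. Of 32851 RefSeq promoters of 300 bases, 1.56% held CAAGGTCA on either strand. The GATA factor motif AGATAA was not in this window and was in 11.2% of those promoters on either strand. The forkhead motif GTAAACA was not in it either and was in 3.65% of them. The motifs were chosen with the sequence in view, and a match of letters does not show binding.

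The libraries held between 11661820 counts (tumour library 3) and 20890487 counts (wild-type library 1) on genes. The first wild-type library and the second tumour library were unlike the rest of their groups. Across genes, the correlation of log2 CPM with the other wild types was 0.914 and 0.922 for wild-type library 1, against 0.975 between the other wild types. For tumour library 2 it was 0.898 and 0.908, against 0.974 between the other tumours. Hyperplasia library 3 has the same title stem as tumour library 3, and across genes hyperplasia library 3 was closest to that tumour (0.979), ahead of both other hyperplasia libraries (0.962 and 0.959). Hyperplasia library 2 was likewise closest to a library of another group, wild-type library 2 (0.978), ahead of its own group (0.967 and 0.959), with no title stem in common. The labels do not say whether any samples came from the same animal, so the p-values measure the spread between these samples, which may be partly technical.

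Amh was far lower in every mutant ovary than in every wild-type ovary. Levels are in CPM, counts relative to the library total after TMM scaling of the libraries. Amh stood at 7.81, 0.0975 and 39.4 CPM in tumour libraries 1, 2 and 3. The hyperplasia libraries 1, 2 and 3 held 12.4, 6.59 and 16.3 CPM, and the wild-type libraries 222, 221 and 211 CPM. The 3 wild types lay close together, and no mutant library reached 40 CPM. The mean was 15.8 ± 20.8 CPM in tumours, 11.8 ± 4.90 CPM in hyperplasia and 218 ± 6.34 CPM in wild type (SD, n = 3 each). Tumours thus held 7.24% and hyperplasia 5.40% of the wild-type mean.

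The tumours spread widely. Tumour library 2 had 1 Amh count (95% Poisson interval 0.00247 to 0.543 CPM, counting error only). Against the wild-type mean that is a ratio of 2235, with a counting interval of 401 to 88268. Tumour library 3 held the most Amh of the 6 mutant libraries, 469 counts, still 5.53 times below the wild-type mean. In the deposited TPM values, which are scaled for length, Amh stood at 7.93, 0.06 and 43.8 TPM in tumours, 14.1, 7.50 and 17.8 TPM in hyperplasia, and 165, 261 and 240 TPM in wild type. By mean TPM Amh ranked 7160 of 55536 genes in tumours, 8821 in hyperplasia and 639 in wild type.

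**Figure D1:**
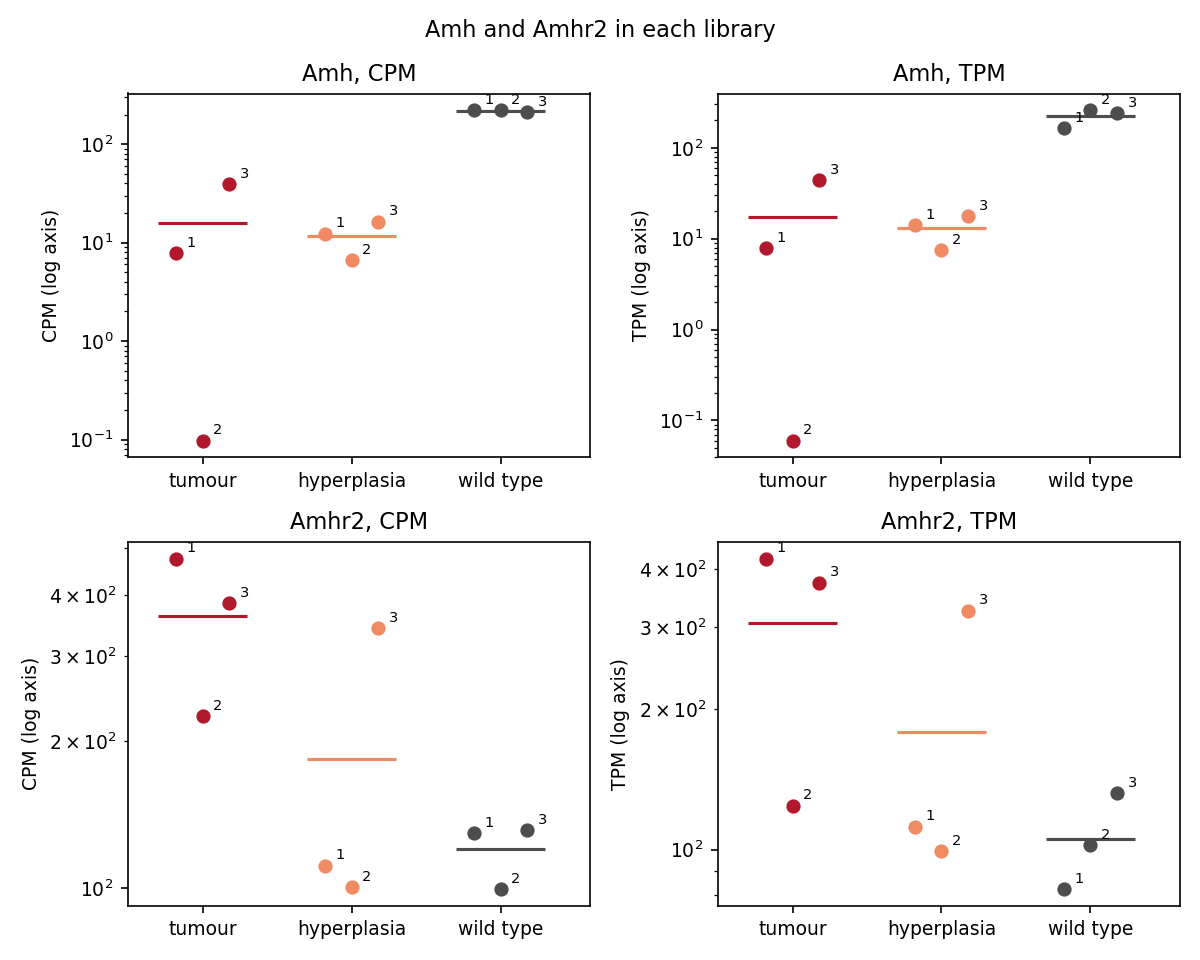
Amh (top) and Amhr2 (bottom) in each library, in CPM (left) and TPM (right), on log axes. Points are single libraries numbered by replicate and lines are group means. All 6 mutant libraries lie below the 3 wild types for Amh, and for Amhr2 hyperplasia library 3 (342 CPM) lies with the tumours.

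In the fit of all 9 libraries no Amh difference passed the threshold of adjusted p 0.05 over the 16213 genes tested. In tumours against wild type the log2 fold change was -3.79 (SE 1.17, 95% interval -6.43 to -1.14; edgeR quasi-likelihood test, adjusted p = 0.121 by Benjamini-Hochberg). The groups did not overlap, as was so in the lower direction for 13.4% of genes, and 1.6% of genes passed the threshold. In hyperplasia against wild type it was -4.21 (SE 1.20, interval -6.90 to -1.51; edgeR quasi-likelihood test, adjusted p = 0.999), again with no overlap, where 5.18% of genes were lower without overlap. Among the most negative of the 16213 fitted changes Amh ranked 359 in tumours against wild type, 14 in hyperplasia against wild type and 184 over all mutant samples. In hyperplasia against wild type 0% of genes passed: edgeR called 0 genes, with 572 (3.53%) at an unadjusted p under 0.05, while DESeq2 called 18 and limma-voom 0. Fitted on the hyperplasia and wild-type libraries alone, edgeR called 3 genes, and Amh was one of them (log2 fold change -4.20, edgeR quasi-likelihood test, adjusted p = 0.0346; range over the alternatives 0.0346 to 1). DESeq2 gave a fold change of -4.21 and no p-value for Amh.

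Taken over all mutant samples, Amh differed from wild type by -4.00 on the log2 scale (SE 0.90, interval -6.03 to -1.96; edgeR quasi-likelihood test, adjusted p = 0.107). Lower values in 6 of 6 mutant libraries without overlap were seen for 2.69% of genes, and 0.0123% passed the threshold. Tumours and hyperplasia did not differ detectably in Amh. The log2 difference was 0.42 with an interval of -1.99 to 2.82 (edgeR quasi-likelihood test, adjusted p = 0.895), in a comparison where 0.185% of genes passed, and its sign turned to -1.53 without tumour library 3. Without wild-type library 1 and tumour library 2 the value for tumours against wild type was -3.22, and after fitting the common title stem as a covariate it was -5.26 (edgeR quasi-likelihood test, adjusted p = 0.0954 and 0.0982). With limma on log2(TPM + 1) the tumour difference was -4.86 and passed (adjusted p = 0.0415; range over the alternatives 0.0415 to 0.265).

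Amhr2 was detected in every lesion, and its level was above every wild type in all 3 tumours on the CPM scale. It stood at 476, 225 and 386 CPM in tumour libraries 1, 2 and 3. The hyperplasia libraries held 111, 100.3 and 342 CPM, and the wild types 130, 99.3 and 132 CPM. All 3 tumours lay above all 3 wild types, and hyperplasia split, with libraries 1 and 2 inside the wild-type range and library 3, which shares its title stem with tumour library 3, among the tumours. The mean was 362 ± 127 CPM in tumours, 184 ± 136 CPM in hyperplasia and 120.2 ± 18.1 CPM in wild type (SD, n = 3 each), so tumours held 301% and hyperplasia 153% of the wild-type mean.

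In TPM, Amhr2 stood at 421, 124 and 374 in tumours, 112, 99.4 and 326 in hyperplasia, and 82.2, 102 and 132 in wild type. On this scale tumour library 2 lay below wild-type library 3, so the groups overlapped. The rank of Amhr2 by mean TPM was 409 in tumours, 814 in hyperplasia and 1409 in wild type.

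In the fit of all 9 libraries the Amhr2 difference did not pass the threshold in any comparison. In tumours against wild type it was 1.59 on the log2 scale (SE 0.49, 95% interval 0.49 to 2.69; edgeR quasi-likelihood test, adjusted p = 0.119), with no overlap in CPM, as for 10.6% of genes in the higher direction. DESeq2 gave the same size, 1.59, and called it (Wald test, adjusted p = 0.0195; range over the alternatives 0.0195 to 0.289). In hyperplasia against wild type the difference was 0.62 (interval -0.46 to 1.70; edgeR quasi-likelihood test, adjusted p = 0.999), and without hyperplasia library 3 it was -0.18. Tumours exceeded hyperplasia by 0.97 (interval -0.11 to 2.06; edgeR quasi-likelihood test, adjusted p = 0.401), which was 1.78 without hyperplasia library 3 and 0.66 without hyperplasia library 2. All mutant samples exceeded wild type by 1.10 (interval 0.12 to 2.09; edgeR quasi-likelihood test, adjusted p = 0.366). Without wild-type library 1 and tumour library 2 the difference of tumours from wild type was 1.87, and with the term for the title stem it was 1.31.

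By mean CPM the order was tumour, hyperplasia, wild type for Amhr2, and wild type, tumour, hyperplasia for Amh. For Amhr2 the fitted 95% intervals of both differences between neighbours in this order included 0, and for Amh that of tumour and hyperplasia did.

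The length that RSEM reports for a gene, the mean of its transcript lengths weighted by their estimated shares, bears on which Amhr2 transcript was counted. It was 1888, 1917 and 1884 bases in tumours, 1859, 1888 and 1874 in hyperplasia, and 1921, 1884 and 1868 in wild type. Since the second longest transcript has 1735 bases, at least 73.4% to 89.5% of the Amhr2 transcripts in tumours were assigned to the longest one. This lower limit was 61.2% to 75.2% in hyperplasia and 65.6% to 91.4% in wild type, and the groups overlapped. The highest limits were those of wild-type library 1 and tumour library 2, the libraries that were unlike the rest of their groups.

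Setting ligand against receptor within each library removes the library scaling. On the TPM scale Amh exceeded Amhr2 in the wild types and lay below it in every mutant library. The quotient of Amh over Amhr2 was 0.0189, 5.63e-04 and 0.117 in tumours, 0.126, 0.0756 and 0.0545 in hyperplasia, and 2.01, 2.55 and 1.82 in wild type. Expressed the other way, hyperplasia libraries held 7.94 to 18.3 Amhr2 transcripts per Amh transcript, and tumour libraries 1 and 3 held 53.0 and 8.53. The value of tumour library 2 rests on 1 Amh count. The mean log2 quotient was -6.54 ± 3.91 in tumours, -3.64 ± 0.61 in hyperplasia and 1.07 ± 0.25 in wild type (SD, n = 3 each).

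**Figure D2:**
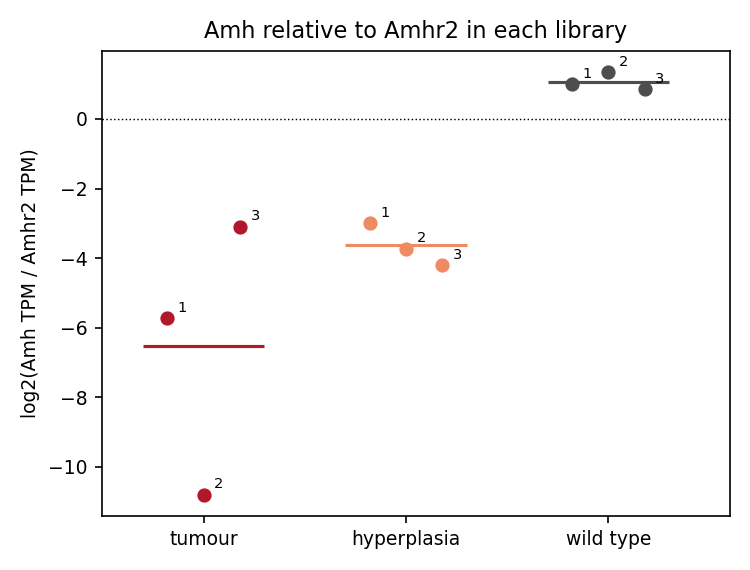
Log2 of Amh TPM over Amhr2 TPM in each library, with 0.01 added to each value. Points are libraries numbered by replicate, lines are group means and the dotted line marks equal TPM. Only the 3 wild types lie above 0, and tumour library 2 is lowest at -10.8.

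All mutant libraries lay below all wild types, with a mean difference in log2 quotient of -6.16 (two-sided exact permutation test, 6 against 3, p = 0.0238, the smallest this design allows, and 0.0952 adjusted over the 4 comparisons). The difference was -7.61 for tumours against wild type and -4.71 for hyperplasia against wild type. Each had p = 0.1 in the exact permutation test, the smallest possible with 3 against 3, and 0.133 after adjustment. Tumours against hyperplasia gave -2.90 (exact permutation test, p = 0.3, adjusted 0.3). Without wild-type library 1 and tumour library 2 the difference of tumours from wild type was -5.52.

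The genes that act with AMH were read from a list of 25, all of which were measured. In tumours against wild type 2 of them fell, Smad9 and Id2, and 0 rose, where 1.25% and 0.352% of all genes were called lower and higher (edgeR quasi-likelihood test, adjusted p 0.05). The median log2 fold change of the list was 0.26, beside 0.01 over all genes. In the other comparisons 0 of 25 passed in this fit. DESeq2 called 5 of the 25 in tumours against wild type, Smad9 and Id2 lower and Sox9, Pcsk6 and Bmpr1b higher, among 1747 genes called in all, where edgeR called 259. It called 0 of 25 in hyperplasia against wild type among 18 genes, 2 in tumours against hyperplasia among 816 genes (edgeR 30), and 3 over all mutant samples among 591 genes (edgeR 2). The list medians were 0.17 in hyperplasia against wild type, 0.12 in tumours against hyperplasia and 0.21 over all mutant samples, beside 0.00, 0.05 and -0.01 over all genes.

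Among the convertases that cut the precursor, Furin stood at 111, 161 and 123 CPM in tumours and 118, 198 and 140 CPM in wild type, with overlapping groups. Pcsk6 stood at 289, 50.8 and 569 CPM in tumours, 109, 59.3 and 352 CPM in hyperplasia, and 36.8, 55.9 and 62.3 CPM in wild type. Tumour library 2 lay inside the wild-type range, and the log2 fold change of 2.55 in tumours against wild type did not pass (SE 0.86, edgeR quasi-likelihood test, adjusted p = 0.143), while DESeq2 called it (adjusted p = 0.0161). Pcsk5 stood at 146, 960 and 441 CPM in tumours, 128, 397 and 176 CPM in hyperplasia, and 44.6, 276 and 85.2 CPM in wild type. Its groups overlapped, tumour library 2 was its highest library, and the log2 fold change of 1.93 in tumours against wild type did not pass (SE 0.83, edgeR quasi-likelihood test, adjusted p = 0.234).

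Each type I receptor gene was detected in every library. In TPM, Bmpr1b, which encodes ALK6, stood at 82.1, 36.1 and 62.2 in tumours, 44.8, 19.7 and 32.8 in hyperplasia, and 17.7, 21.8 and 43.1 in wild type. In CPM all 3 tumours (242, 171 and 187) exceeded all wild types (83.5, 55.0 and 114), as for 10.6% of genes in the higher direction. The log2 fold change of 1.25 did not pass (SE 0.36, edgeR quasi-likelihood test, adjusted p = 0.107) but was called by DESeq2 (Wald test, adjusted p = 0.0225). Bmpr1a (ALK3) stood at 57.3, 19.3 and 62.9 TPM in tumours and 22.8, 61.3 and 57.5 TPM in wild type. Acvr1 (ALK2) was at 22.8, 16.3 and 23.0 TPM in tumours and 15.3, 54.7 and 42.8 TPM in wild type. Both had overlapping groups, and on this scale Amhr2 exceeded each type I receptor gene in each of the 9 libraries.

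Of the SMADs that carry the signal, Smad9 fell in tumours. It stood at 2.71, 0.488 and 2.69 CPM in tumours, 12.5, 20.1 and 9.06 CPM in hyperplasia, and 12.2, 24.8 and 18.2 CPM in wild type. All tumours lay below all other libraries. Without overlap, 12.4% of genes were lower in tumours than in hyperplasia and 13.4% lower than in wild type. The share lower than both at once was not computed. The log2 fold change of Smad9 against wild type was -3.21 (SE 0.61, edgeR quasi-likelihood test, adjusted p = 0.0453). Against hyperplasia it was -2.80 and did not pass (edgeR quasi-likelihood test, adjusted p = 0.0961), while it passed with DESeq2 (-2.81, adjusted p = 1.7e-04) and in edgeR without a low-count filter (-2.82, adjusted p = 0.0332). Smad5 stood at 171, 144 and 232 CPM in tumours and 114, 180 and 168 CPM in wild type, and Smad1 at 42.0, 32.5 and 38.2 CPM in tumours and 69.9, 38.8 and 36.6 CPM in wild type. The shared partner Smad4 and the inhibitory Smad6 and Smad7 did not pass either, with Smad7 at a log2 fold change of -0.49 in tumours against wild type (edgeR quasi-likelihood test, adjusted p = 0.418).

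Id2, an inhibitor of DNA binding and a target of BMP-class SMADs, also fell. It stood at 21.3, 20.4 and 39.6 CPM in tumours, 94.0, 117 and 83.5 CPM in hyperplasia, and 195, 138 and 65.1 CPM in wild type. The tumours lay below all other libraries, where the shares of genes given beside Smad9 apply. The log2 fold change of Id2 was -2.29 against wild type (SE 0.42, edgeR quasi-likelihood test, adjusted p = 0.0443) and -1.86 against hyperplasia (edgeR quasi-likelihood test, adjusted p = 0.114). Against hyperplasia it passed with DESeq2 (-1.86, adjusted p = 0.00165) and in edgeR without a low-count filter (-1.88, adjusted p = 0.0387). Id1 stood at 24.1, 15.1 and 18.8 CPM in tumours and 76.7, 21.1 and 27.0 CPM in wild type, and Id3 at 116, 180 and 61.3 CPM in tumours and 288, 132 and 134 CPM in wild type. Neither passed. The calls of Smad9 and Id2 were lost in each of the 6 fits that left out 1 tumour or wild-type library (edgeR quasi-likelihood test, adjusted p from 0.0529 to 0.127 for Smad9 and from 0.0529 to 0.129 for Id2). Calls over all genes fell in these fits too, from 259 with all libraries. They were 2, 69 and 0 without tumour library 1, 2 or 3, and 15, 18 and 0 without wild-type library 1, 2 or 3. Leaving out wild-type library 1 gave -3.43 for Smad9 and -1.91 for Id2. Luteal markers moved in the same pattern: the 6 genes summed to 562 to 645 TPM in tumours, 5849 to 9923 TPM in hyperplasia and 5415 to 10997 TPM in wild type, and their part in the Smad9 and Id2 results was not tested.

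**Figure D3:**
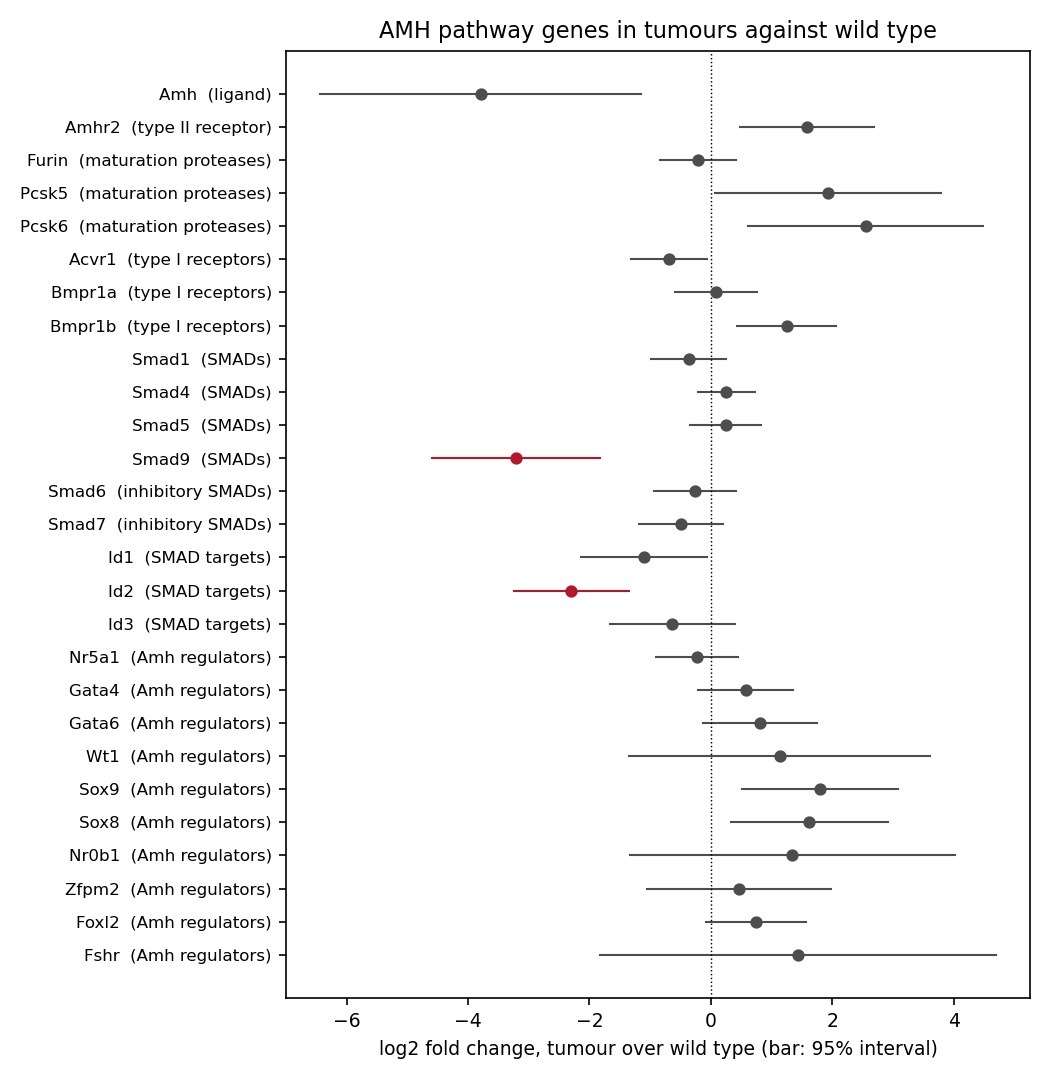
Log2 fold change of tumours over wild type for Amh, Amhr2 and the 25 pathway genes, ordered by role. Points are edgeR estimates, bars are 95% intervals, and red marks adjusted p under 0.05, which Smad9 (-3.21) and Id2 (-2.29) reached.

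Among the genes known to regulate Amh transcription, Nr5a1 stood at 251, 240 and 248 CPM in tumours, 303, 184 and 238 CPM in hyperplasia, and 266, 196 and 405 CPM in wild type. Gata4, which acts with NR5A1 on Amh, stood at 293, 337 and 266 CPM in tumours and 117, 195 and 289 CPM in wild type. Sox9, which switches on Amh in fetal Sertoli cells, stood at 18.7, 39.9 and 9.83 CPM in tumours, 5.46, 6.52 and 15.3 CPM in hyperplasia, and 4.67, 7.60 and 7.42 CPM in wild type. The tumours exceeded the wild types without overlap, as for 10.6% of genes in the higher direction. The log2 fold change of 1.80 did not pass (SE 0.57, edgeR quasi-likelihood test, adjusted p = 0.128), while DESeq2 called it (Wald test, adjusted p = 0.0247). Amh was lowest in tumour library 2, where Sox9 was highest. That library had 1 Amh count, and the relation of Sox9 to Amh was not tested.

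Foxl2 itself stood at 268, 227 and 388 CPM in tumours, 184, 129 and 339 CPM in hyperplasia, and 203, 146 and 178 CPM in wild type. Its log2 fold change in tumours against wild type was 0.74 (SE 0.37, edgeR quasi-likelihood test, adjusted p = 0.298), and gene counts sum both alleles, so they do not check the genotype. Wt1, a zinc finger factor of the gonad that regulates both Amh and Amhr2, stood at 422, 2.54 and 205 CPM in tumours, 89.8, 104 and 186 CPM in hyperplasia, and 70.7, 108 and 108 CPM in wild type. Fshr, the FSH receptor of granulosa cells, stood at 81.8, 0.00 and 80.7 CPM in tumours, 7.98, 2.46 and 36.1 CPM in hyperplasia, and 18.9, 8.36 and 32.7 CPM in wild type. Tumour library 2 was the lowest library for Amh, Wt1 and Fshr, with 0 Fshr counts, where a floor of 3 counts corresponds to 0.233 CPM before TMM scaling. It was also the lowest for the surface epithelium markers given below, which summed to 2.16 TPM there. Their part in the Wt1 values was not tested.

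Sf3a2, whose end lies just before Amh, stood at 61.0, 68.6 and 55.5 CPM in tumours, 51.1, 41.9 and 47.7 CPM in hyperplasia, and 29.7, 52.8 and 58.6 CPM in wild type. Its log2 fold change in tumours against wild type was 0.39 (edgeR quasi-likelihood test, adjusted p = 0.448). Tumour library 2, with only 1 Amh count, held the most Sf3a2 on the CPM scale. In TPM this did not hold: Sf3a2 stood at 66.1, 50.5 and 68.4 in tumours and 16.8, 71.8 and 77.9 in wild type.

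Ovaries are mixtures, and in bulk RNA fewer cells of a type and less RNA per cell cannot be told apart. The granulosa markers, 12 of 12 detected in each group, summed to 4166, 3305 and 6252 TPM in tumours, 4218, 1266 and 3554 TPM in hyperplasia, and 3578, 1977 and 4026 TPM in wild type. These ranges overlap. Inha, the inhibin alpha subunit, carried much of the sum, at 2806, 2096 and 3885 TPM in tumours and 1897, 1034 and 1861 TPM in wild type. The other 11 genes, a split made after the values were seen, summed to 1360, 1209 and 2367 TPM in tumours, 2326, 611 and 1506 TPM in hyperplasia, and 1680, 942 and 2165 TPM in wild type, also overlapping. Members did not move alike: Inhba, the inhibin beta A subunit, stood at 14.4, 84.6 and 141 CPM in tumours, 1228, 83.0 and 164 CPM in hyperplasia, and 989, 121 and 1008 CPM in wild type, with a log2 fold change of -3.14 in tumours against wild type that did not pass (SE 1.23, edgeR quasi-likelihood test, adjusted p = 0.196). Fshr had 0 counts in tumour library 2, as given above. In tumours against wild type 9 of the 12 had a fitted log2 fold change above 0, 3 below 0, and 0 passed. Without overlap 3 were higher and 0 lower, beside 10.6% and 13.4% of all genes. Esr2 was one of those higher, with a log2 fold change of 1.73 (SE 0.38, edgeR quasi-likelihood test, adjusted p = 0.0574). The part of granulosa cell content in the Amh result was not tested.

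The oocyte marker sum, like Amh, was lower in every mutant library than in every wild type. The 9 genes summed to 18.3, 2.95 and 13.0 TPM in tumours, 86.0, 20.2 and 14.6 TPM in hyperplasia, and 140, 147 and 186 TPM in wild type, and 4 of the 9, Zp2, Nlrp5, Oosp1 and Figla, had 0 counts in all tumours. In tumours 8 of 9 were tested, 8 were lower and 3 fell (edgeR quasi-likelihood test, adjusted p 0.05), where 1.25% of all genes fell. In hyperplasia 8 were lower and 0 fell, where 0% of all genes passed. One member, Ooep, carried most of the sum in tumour libraries 1 and 3 and hyperplasia library 3, at 15.9, 10.02 and 10.6 TPM. Without Ooep, likewise chosen after its values were seen, the other 8 genes summed to 2.42, 2.95 and 3.02 TPM in tumours, 80.4, 17.9 and 3.97 TPM in hyperplasia, and 126, 137 and 174 TPM in wild type. Their part in the Amh result was not tested. Hyperplasia library 1 kept the most oocyte signal of the mutants, at 86.0 TPM, with 14.1 TPM of Amh. Tumour library 3 held the most Amh of the mutants, 43.8 TPM, with an oocyte sum of 13.0 TPM, or 3.02 TPM without Ooep. How the oocyte sum and Amh relate among the mutants was not tested.

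The luteal sums, given beside Smad9 and Id2, overlapped between hyperplasia and wild type. The part of luteal and theca markers in the Amh result was not tested. Theca markers, 4 genes, summed to 257 to 765 TPM in tumours, 846 to 2740 TPM in hyperplasia and 1307 to 2335 TPM in wild type. In tumours against wild type 1 of them had a fitted log2 fold change above 0 and 3 below 0. Fdx1 carried much of the sums, at 351, 538 and 196 TPM in tumours and 2089, 1203 and 1484 TPM in wild type. Cyp17a1 stood at 107, 155 and 30.2 TPM in tumours and 33.6, 1.52 and 280 TPM in wild type. Lhcgr is also on the luteal list.

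Surface epithelium markers, 9 genes, moved with Amhr2 in some libraries and not in others. They summed to 1702, 2.16 and 687 TPM in tumours, 255, 346 and 795 TPM in hyperplasia, and 188, 286 and 310 TPM in wild type. In tumour library 2 Muc16 was at 0 and the other 8 at or below 0.78 CPM, while Amhr2 there stood at 225 CPM, above every wild type, and at 124 TPM, below wild-type library 3. Stroma markers, 5 genes, summed to 377 to 2387 TPM in tumours, 1521 to 2535 TPM in hyperplasia and 601 to 1701 TPM in wild type. The part of surface epithelium and stroma in the Amhr2 values was not tested.

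Sertoli markers, 7 genes, summed to 46.5 to 60.5 TPM in tumours, 16.2 to 62.6 TPM in hyperplasia and 26.4 to 141 TPM in wild type, all overlapping. Ptgds carried most of the sum in wild-type library 1 (120 TPM) and tumour library 2 (43.2 TPM). Dmrt1, a transcription factor of the testis, was at 1.32, 0.00 and 0.168 CPM in tumours, 0.00, 0.00 and 1.10 CPM in hyperplasia, and at 0 in the 3 wild types. In tumours against wild type 5 of the 7 were tested, 3 with a fitted log2 fold change above 0 and 2 below 0, and 0 passed. Amh, a product of Sertoli cells in the testis, was low in all these tumours, and its relation to these markers was not tested.

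**Figure D4:**
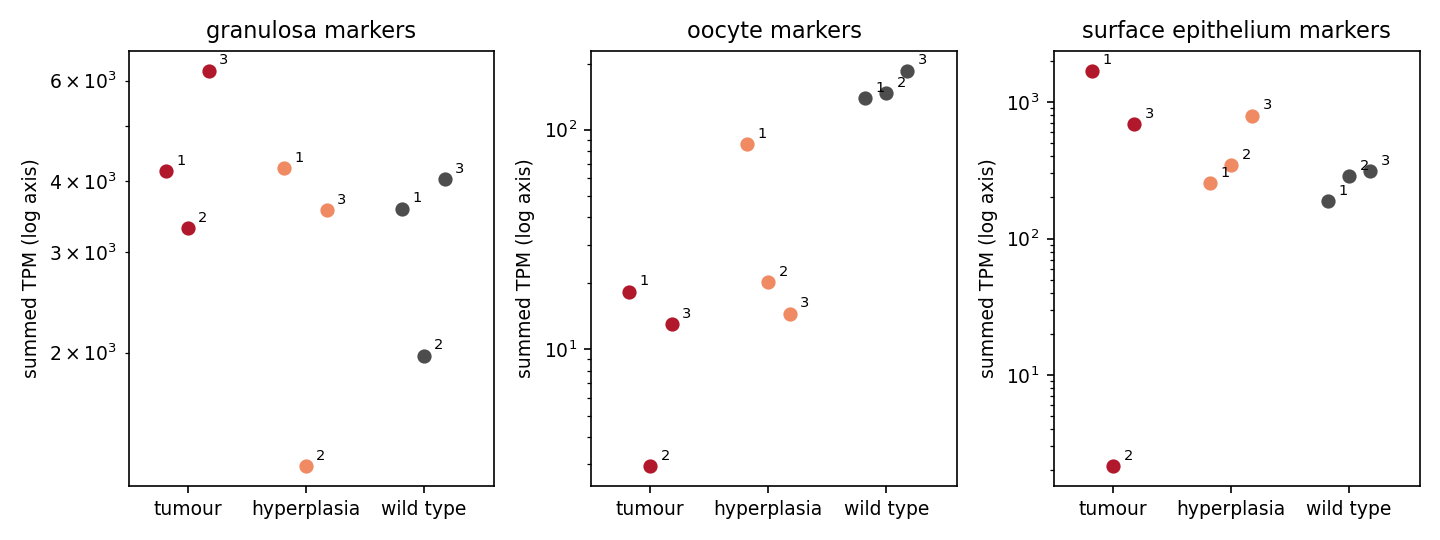
Summed TPM of granulosa (12 genes), oocyte (9) and surface epithelium (9) markers in each library, on log axes, with points numbered by replicate. Granulosa sums overlap between groups, oocyte sums are highest in the 3 wild types (140 to 186 TPM), and tumour library 2 holds 2.16 TPM of surface epithelium markers.

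Over 13505 named genes whose mean reached 1 CPM, the profile over the 9 libraries was compared with that of each gene by the root mean square difference of centred log2(CPM + 1). For Amhr2 the 3 closest were Slc44a3 (0.21), Colq (0.22) and Rab17 (0.25), where the median gene stood at 0.92. Slc44a3, a choline transporter-like gene, stood at 58.6, 26.7 and 35.4 CPM in tumours, 12.9, 13.5 and 38.2 CPM in hyperplasia, and 13.2, 15.4 and 15.2 CPM in wild type, so it shared the high value of hyperplasia library 3. Colq stood at 3.18, 0.975 and 2.69 CPM in tumours, 0.107, 0.362 and 1.77 CPM in hyperplasia, and 0.199, 0.118 and 0.115 CPM in wild type. At such low levels the added 1 CPM sets most of the value, so the small difference of Colq does not show a fold change like that of Amhr2. Rab17, a small GTPase of membrane traffic, stood at 8.01, 3.32 and 3.86 CPM in tumours, 1.18, 0.507 and 4.98 CPM in hyperplasia, and 1.69, 0.471 and 0.747 CPM in wild type. At its wild-type levels the added 1 CPM weighs on Rab17 too, so its small difference does not show a fold change like that of Amhr2 either.

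For Amh no gene came as close. The 3 nearest were Slc38a3 (1.08), Sel1l3 (1.23) and Car3 (1.27), where the median gene stood at 2.54. Slc38a3, a glutamine transporter gene, stood at 1.39, 0.00 and 6.89 CPM in tumours, 4.23, 1.38 and 1.53 CPM in hyperplasia, and 38.7, 11.5 and 23.6 CPM in wild type. Car3, a carbonic anhydrase, stood at 0.596, 0.00 and 1.34 CPM in tumours, 14.8, 2.46 and 2.92 CPM in hyperplasia, and 47.6, 57.5 and 28.7 CPM in wild type. Both were highest in the wild types, which varied more among themselves than they did for Amh. These likenesses describe 9 libraries that share their group structure and carry no test.

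**Figure D5:**
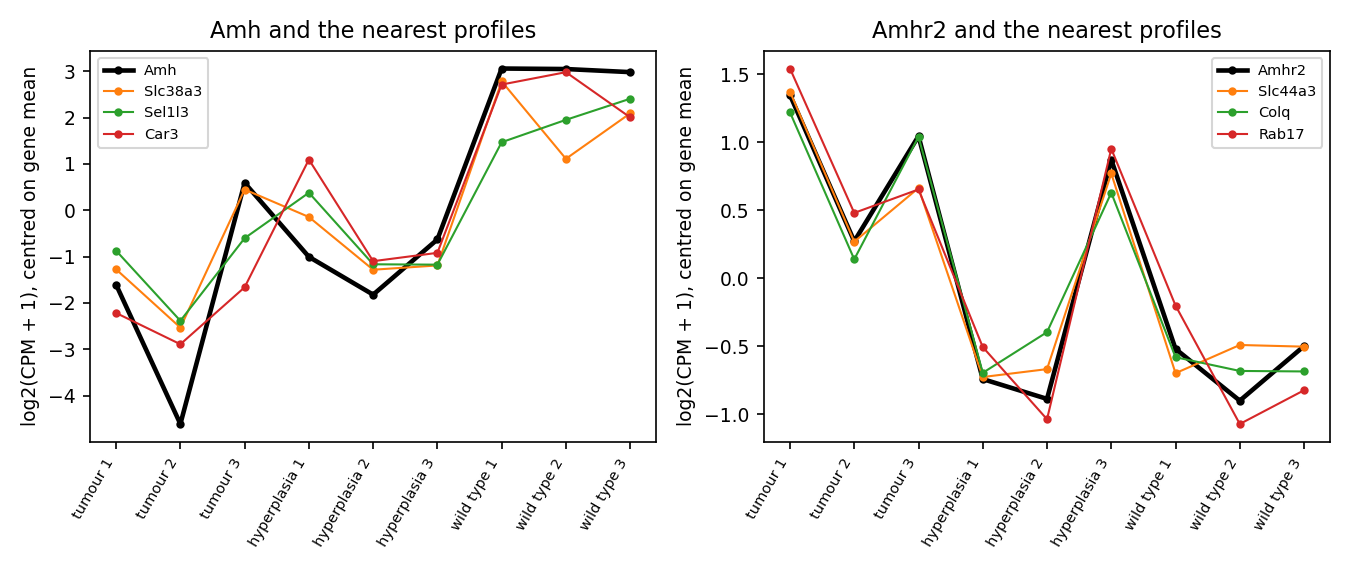
Profiles of Amh (left) and Amhr2 (right), black, with the 3 nearest genes each, as log2(CPM + 1) centred on the gene mean, over tumour, hyperplasia and wild-type libraries. Each of the 3 genes near Amhr2 is higher in hyperplasia library 3 than in hyperplasia libraries 1 and 2, and the differences from Amh (1.08 to 1.27) are larger than those from Amhr2 (0.21 to 0.25), on a scale that compresses low levels.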

How the data were processed

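RNA-seq libraries were made from 9 ovary samples with Trizol extraction and a stranded TruSeq mRNA kit, per the labels' protocols. The authors deposited RSEM gene tables with expected counts (unnormalised estimates), TPM and FPKM, per the file headers; tests used the first of these and, as alternatives, the TPM. RSEM 1.3.1, STAR 2.7.1a, Picard 2.8.1, FastQC and GRCm38 are listed in the submitters' processing notes. How strand was set in counting is not given in those sources. The gene length and effective length columns are in bases. All 55536 identifiers matched GENCODE M21.

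Expected counts were rounded. Genes were tested with edgeR 4.0.16 (R 4.3.3; TMM factors 0.797 to 1.078; filterByExpr, count minimum 10, total minimum 15), a quasi-likelihood fit of all 9 libraries, with Benjamini-Hochberg adjustment over 16213 genes and a threshold of 0.05. Standard errors are the fold change divided by the root of the F statistic. Alternatives used DESeq2 1.42.0, limma 3.58.1 (voom, and log2 TPM with 1 or 0.1 added) and other scalings, filters and samples. Scripts were tested on simulated data. No pair of libraries was a duplicate (smallest chi-square per degree of freedom 27.2). Poisson intervals and floors cover counting error only.

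The members, lists and tests were chosen with earlier results of these data known. Named genes were the members, genes of the pathway and marker lists, the annotated neighbours and the nearest profiles, of which 3 a member are given and others are not reported here.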

Additional observations from a re-analysis of the deposited data

How the results depend on the processing

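Of 225 alternative values for Amh, Amhr2, their quotient and the pathway counts, 200 were scored as unchanged. For Amh and Amhr2 this meant the same direction and the same side of the threshold. DESeq2 gave no p-value for Amh, so its Amh values could be compared by direction only. The exact permutation test of the quotient could not pass the threshold with so few libraries, so only its direction could change. For the pathway counts, unchanged meant the same number of genes called. For Amh in tumours against hyperplasia, which was 0.42, the sign turned with limma-voom (-1.53), limma on log2(TPM + 1) (-0.83), limma on log2(TPM + 0.1) (-1.70) and the title stem term (-0.40), and it ran from -1.53 to 0.99 with 1 library left out; the cause was not tested. Amhr2 in hyperplasia against wild type ran from -0.18 to 0.92 with 1 library left out. New calls appeared for Amh in tumours (-4.86 with limma on log2(TPM + 1)), in hyperplasia (-4.20 with only the groups compared) and in all mutant samples (-5.01 with limma-voom and -4.00 without a low-count filter; adjusted p = 0.0406 and 0.0173, range 0.0173 to 0.268), and for Amhr2 in tumours (1.59 with DESeq2).

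The 2 pathway calls in tumours against wild type became 5 with DESeq2, 0 with only the groups compared and 0 with the title stem term, and were 0 to 0 with 1 library left out and 0 without wild-type library 1 and tumour library 2. For tumours against hyperplasia, 0 in the fit of all 9 libraries, DESeq2 called 2 (of 816 genes called in all) and edgeR without a low-count filter 2 (of 199). For all mutant samples, also 0, they called 3 (of 591) and 1 (of 331). Of 150 values for single pathway genes and Sf3a2, 125 kept their side of the threshold, 18 lost and 7 gained a call, and 0 turned. The log2(TPM + 1) scale moved the median of all genes by -0.12 in tumours against wild type, and relative to it Amh stood at -4.75 and Amhr2 at 1.49. Background calls moved too: tumours against wild type had 259 calls by edgeR, 1747 by DESeq2 and 0 with the title stem term, where 2610 genes had an unadjusted p under 0.05. With 1 tumour or wild-type library left out, edgeR calls over all genes in that comparison ran from 0 to 69.

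No paired analysis was possible because the labels give no replicate numbers shared between groups; the title stem that 1 hyperplasia and 1 tumour library share was fitted as a covariate. The alternatives for single genes, and the fit without wild-type library 1 and tumour library 2 for the quotient and the pathway counts, and 3 further settings for those counts, were chosen after seeing the data. The Amh value of tumour library 2 rests on 1 count, which limits its precision. That library held 12886780 counts in all, more than tumour library 3 with 11661820.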
